A study of Mus musculus with 20 samples.

Results

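Keratin and keratin-associated protein genes were followed across 20 mouse tumor arrays. All genes whose symbol begins with Krt or Krtap and a digit were taken, where the array has a probe set annotated to that symbol alone. This gave 96 of the 19938 genes measured, 52 keratins and 44 keratin-associated proteins, each with 1 probe set. A further 6 symbols of these families sat only on probe sets annotated to several symbols and were left out.

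Keratins are the intermediate filament proteins of epithelial cells and assemble as pairs of a type I and a type II chain. The pair in use tells where a cell sits: Krt5 with Krt14 in the basal layer of stratified epithelia, Krt1 with Krt10 in the layers above it, Krt6 with Krt16 or Krt17 in wounded or hyperproliferative epidermis and in hair follicle sheaths, and Krt8 with Krt18 in simple epithelia and many carcinomas. Hair keratins and the keratin-associated proteins, small proteins rich in cysteine or in glycine and tyrosine that cross-link or pack the filaments, build the hair shaft, while Krt25, Krt27 and Krt71 belong to the inner root sheath around it.

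The arrays hold RNA from tumors grown in C57Bl/6 mice from LLC-1 cells, a Lewis lung carcinoma line. Adenoviral vectors were injected into the tumor 5 times, 48 h apart, each time in 25 µl of saline with a vector dose whose log10 in infectious units was 8. The 4 groups of 5 arrays received a vector for eGFP (the control), for IFNbeta, for p19Arf, or p19Arf and IFNbeta together (p19Arf+IFNbeta); p19Arf is a tumor suppressor acting upstream of p53, and IFNbeta is a type I interferon. Every group, eGFP included, thus carried adenovirus, and the promoter that drives the transgenes and the age of the mice are not stated in the labels. The labels number the tumors within a group and name no animal, so a p-value measures the spread between these tumor samples.

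The values are log2 expression values as deposited, from 2.33 to 14.7 over 35556 probe sets, with array medians of 7.49 to 7.61. The spread of an array, meaning the SD over its values, was between 1.99 and 2.15. The table carries no detection call, so a low keratin value cannot be told from background, and levels are compared only within a gene across arrays. Keratin families are close in sequence: Krt6a with Krt6b, Krt14 with Krt16 and Krt17, and the members of a Krtap family can share probe sequence, which leaves the split between such relatives uncertain. In whole tumors, fewer cells of a type and less RNA per cell cannot be told apart.

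Promoter sequences are shown for 5 genes that reached their highest level of the 20 arrays on 1 of 2 tumors described next, Krt5, Krt10 and Krt77 on an IFNbeta tumor and Krt71 and Krtap8-1 on an eGFP tumor. Each run is the 150 bases before the annotated RefSeq start on GRCm38.p6, read 5′ to 3′ on the minus strand where all 5 genes lie, and capitals mark a TATA motif (TATAAA) or a C/EBP motif (TTGCNNAA), on either strand. In order, the windows are chr15:101712906-101713055, chr11:99389365-99389514, chr15:101869706-101869855, chr15:101743098-101743247 and chr16:89487953-89488102.
Krt5: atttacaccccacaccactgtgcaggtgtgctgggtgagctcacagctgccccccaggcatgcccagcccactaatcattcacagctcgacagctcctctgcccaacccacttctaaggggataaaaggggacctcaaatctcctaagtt
Krt10: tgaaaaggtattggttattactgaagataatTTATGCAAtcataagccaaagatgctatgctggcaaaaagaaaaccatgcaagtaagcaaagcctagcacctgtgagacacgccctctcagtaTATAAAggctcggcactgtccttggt
Krt77: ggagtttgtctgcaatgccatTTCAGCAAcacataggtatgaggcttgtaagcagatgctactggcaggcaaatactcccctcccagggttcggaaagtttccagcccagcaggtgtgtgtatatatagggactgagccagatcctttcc
Krt71: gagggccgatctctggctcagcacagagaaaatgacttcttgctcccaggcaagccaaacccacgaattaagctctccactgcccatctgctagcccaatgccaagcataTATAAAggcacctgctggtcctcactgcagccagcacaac
Krtap8-1: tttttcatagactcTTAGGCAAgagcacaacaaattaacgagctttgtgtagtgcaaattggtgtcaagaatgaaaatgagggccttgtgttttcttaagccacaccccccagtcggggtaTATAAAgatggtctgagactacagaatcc
Counted back from the start, the TATA motif began 26 bases before it in Krt10, 29 in Krtap8-1 and 40 in Krt71. A C/EBP match began 119 bases before the start of Krt10, 129 before Krt77 and 136 before Krtap8-1, and the Krt5 window held no match to any motif searched.

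Promoters of 76 of the 96 genes were found in the RefSeq table, as 77 windows of 250 bases before to 50 after a start. TATAAA on either strand was in 51 of the 77 windows, 66.2%, against 13.6% of all 32851 promoters in the table. With the motif on the gene's own strand and beginning 20 to 35 bases before the start, the shares were 42.9% (33 of 77) and 1.84%. It was there in 21 of 40 keratin-associated protein windows and in 12 of 37 keratin windows. By class it was found in 8 of 12 windows of ultra-high sulfur genes, 9 of 16 of high sulfur genes, 4 of 9 of hair shaft keratins, 4 of 8 of inner root sheath genes and 4 of 12 of high glycine-tyrosine genes, and in 1 of 6 suprabasal and 0 of 2 basal windows. The other motifs searched differed less from the table: TGANTCA (AP-1) was in 13% of member windows and 7.81% of all, TTGCNNAA in 15.6% and 10.8%, and GCCNNNGGC (AP-2) in 10.4% and 16.6%. These are matches of letters in a window and say nothing of whether a factor binds there.

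The range of a gene over the 20 arrays had a median of 0.91 log2 units over the 96 genes, against 0.75 over all genes, and it exceeded 1 in 38 of the 96 (39.6%) and in 4432 of all genes (22.2%). The 5 largest ranges belonged to epidermal genes, Krt77 with 4.09, Krt10 with 3.52, Krt5 with 3.18, Krt1 with 3.09 and Krt6b with 2.22. The mucosal and corneal keratins (Krt4, Krt12, Krt13, Krt24 and Krt76) had ranges of 0.52 to 0.83, and the simple epithelial keratins 0.53 to 1.04. Without IFNbeta replicate 3 and eGFP replicate 5, arrays left out after their values were seen, the range of Krt77 was 0.91, of Krt10 0.37, of Krt5 0.83 and of Krt1 0.42. That of Krt6b was still 1.71, and 23 of the 96 genes (24%) and 21.3% of all genes had a range over 1.

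**Figure D1:**
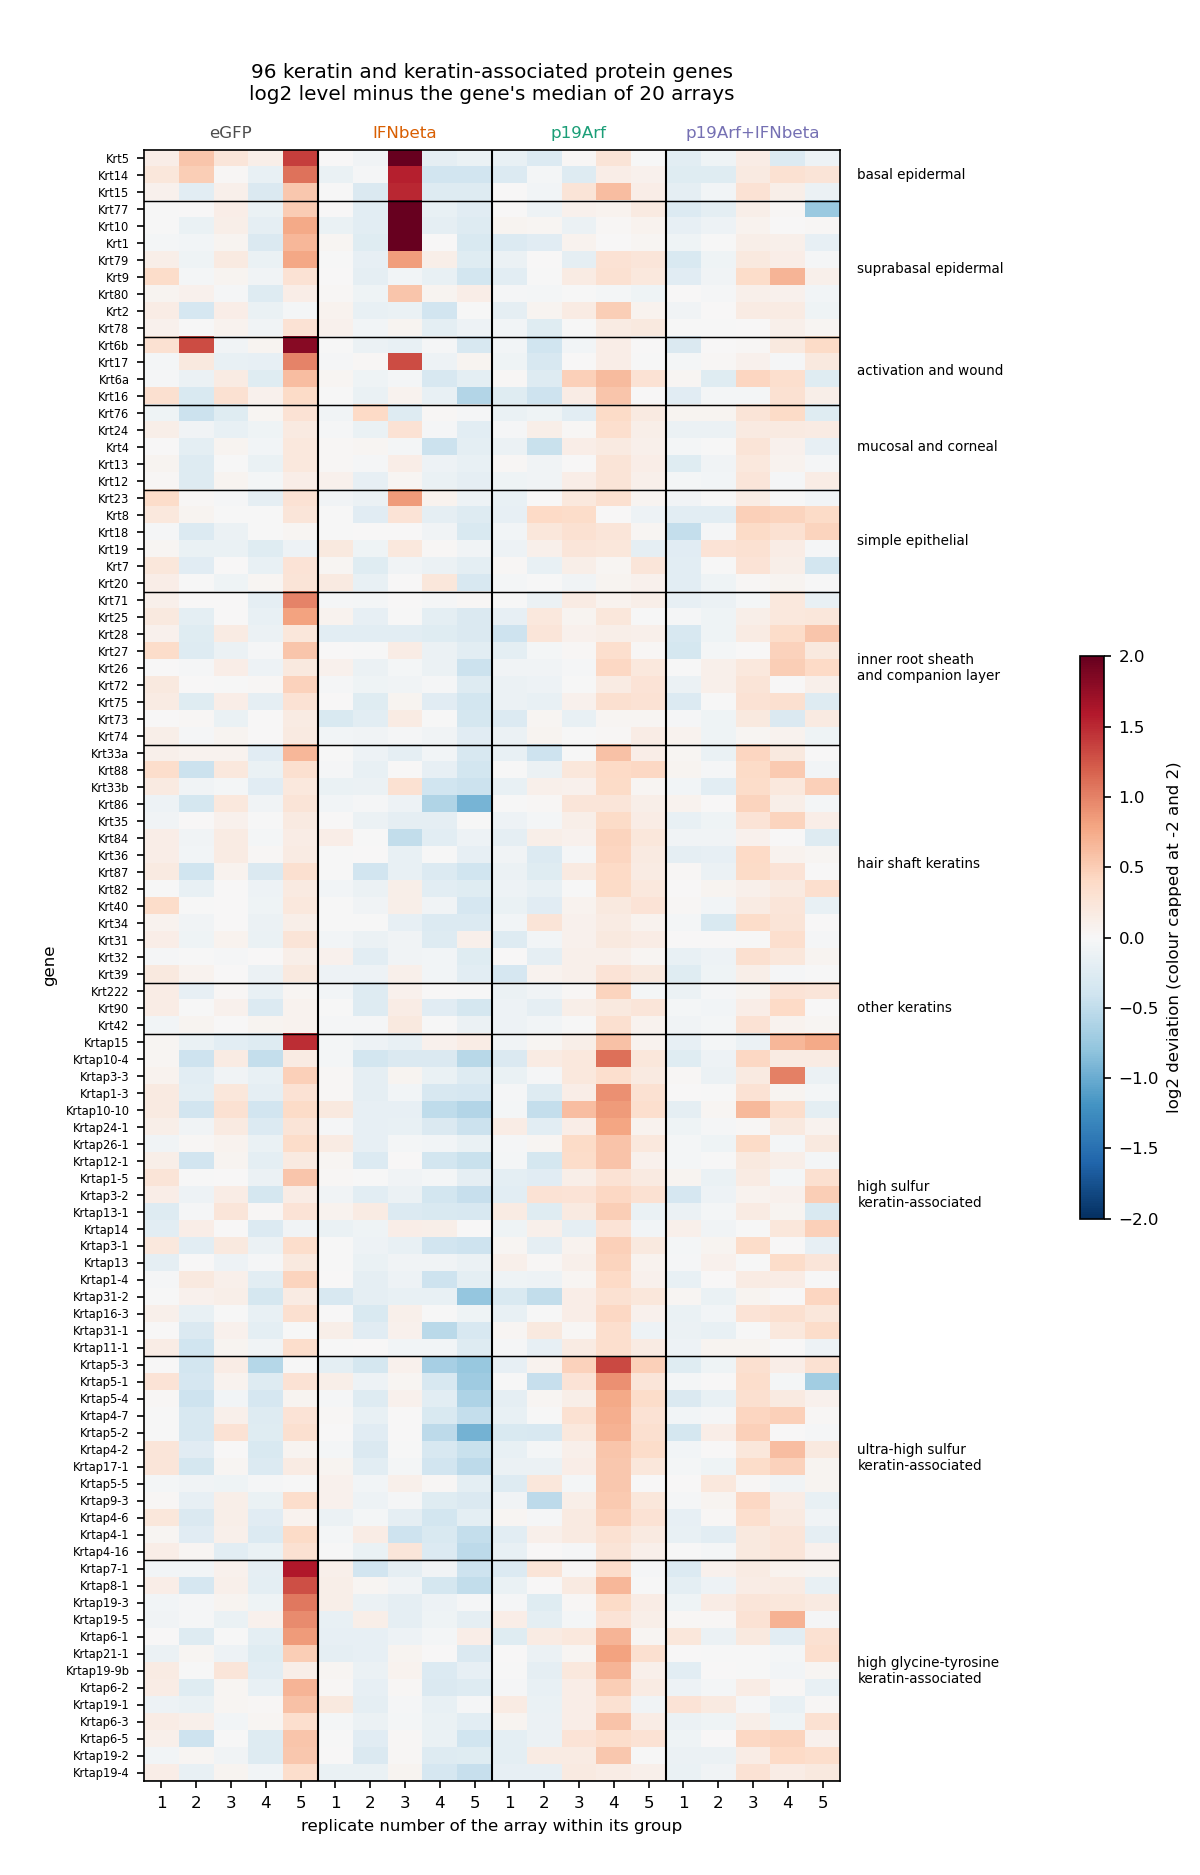
Heat map of the 96 genes (rows, by class) on the 20 arrays (columns, by group and replicate), coloured by the log2 level minus the gene's own median of 20 arrays, with the colour capped at 2 units either way. Epidermal keratins are red on IFNbeta replicate 3, Krt6b and several keratin-associated proteins on eGFP replicate 5, and many keratin-associated proteins are pale red on p19Arf replicate 4 and pale blue on IFNbeta replicate 5.

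Several keratins of the basal and suprabasal epidermis were highest on IFNbeta replicate 3, with Krt5 and Krt14 high on eGFP replicate 5 as well. On that array 7 of the 96 genes lay at least 1 log2 unit above their own median of 20 arrays, where 87 of all 19938 genes, 0.436%, did so. All 7 were epidermal: the suprabasal Krt77, Krt10 and Krt1, the basal Krt5, Krt14 and Krt15, and Krt17. The next members below the limit were Krt23, 0.86 above its median, and Krt79, 0.84 above, both named after their values were seen. None of the 44 keratin-associated proteins had its highest level there, against 10 of the 52 keratins, and over all genes 3.09% did.

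Krt10, the type I partner of Krt1 in differentiating keratinocytes, was at 10.41 on IFNbeta replicate 3. The other 4 IFNbeta arrays were at 7.01, 6.94, 6.97 and 6.89, and no other array of the series exceeded 7.91, the level of eGFP replicate 5. Krt1 was at 8.94 on the same tumor and at 6.19, 5.90, 6.16 and 5.85 on the rest of the group. Krt77, a type II keratin of the suprabasal layers of the skin, was at 10.23 there and at 6.87, 6.67, 6.72 and 6.65 on the other IFNbeta arrays. Both partners of the suprabasal pair were therefore high on the same array and low on the other 4 of the group.

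The basal pair followed on the same tumor. Krt5 was at 9.93, with 7.03, 6.95, 6.84 and 6.88 on the other IFNbeta arrays. Krt14, its partner, was at 8.71, with 7.02, 7.13, 6.77 and 6.77 on the rest of the group. Krt15, a further basal keratin that also marks hair follicle stem cells, was at 8.68 against 6.89 to 7.17 on the other 4. Krt17, of wounded epidermis and hair follicle sheaths, was at 7.72 against 6.31 to 6.48. All 4 genes had their highest level of the 20 arrays on this tumor.

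Not every epidermal keratin was high on IFNbeta replicate 3. Krt2, a late suprabasal keratin abundant in mouse ear, tail and sole skin, was at 5.36 there, within the 5.11 to 5.57 of the other 4. Krt6b was at 4.91, Krt6a at 6.89 and Krt16 at 6.87, each less than 0.1 log2 units above its median of 20 arrays or below it. Krt6a, Krt6b and Krt16 are the keratins induced on wounding. Inner root sheath and hair shaft genes stayed near their medians as classes, with median deviations of 0.00 and -0.09 on that array, against 0.70 for the 8 suprabasal and 1.56 for the 3 basal genes.

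Genes of the cornified envelope and of desmosomes, which are no keratins, were measured beside them. Of 38 such epidermal genes written in a list, 33 had a probe set annotated to 1 symbol alone. Of these, 11 lay at least 1 above their median on IFNbeta replicate 3. Among them were Perp (desmosome assembly) at 10.04 against 6.46 to 7.25 on the 18 arrays other than it and eGFP replicate 5, Lor (loricrin, the main cornified envelope protein) at 9.42 against 6.01 to 6.81, and Krtdap (keratinocyte differentiation-associated protein) at 8.57 against 5.37 to 5.95. Not all of the 33 were raised there: Tgm1, Tgm3, Evpl, Sprr1b, Sprr2d and Lce3a had deviations of -0.04 to 0.07. The median deviation of the 33 genes was 0.67. The mean level of the 33 genes was 8.01 on IFNbeta replicate 3 and ran from 6.75 to 6.90 on the rest of that group. Over the groups it ran from 6.75 to 8.01 in IFNbeta, from 6.85 to 7.32 in eGFP, from 6.83 to 7.29 in p19Arf and from 6.85 to 7.13 in p19Arf+IFNbeta. None of 20 hair follicle genes other than keratins, of 14 simple epithelium genes, of 8 melanocyte genes or of 10 sebaceous gland genes lay 1 above its median there. The 14 simple epithelium genes had their highest mean of the 20 arrays on this tumor, 7.36, with Esrp1 0.996 and Cdh1 0.67 above their medians. All 10 skeletal muscle genes lay above their medians there, with 1, Myh1 (a fast muscle myosin), past the limit at 1.35, and their mean level was 8.58. That mean ran from 7.34 to 9.49 in IFNbeta, 7.33 to 8.0 in eGFP, 7.32 to 8.84 in p19Arf and 7.41 to 9.07 in p19Arf+IFNbeta. The part of epidermal, other epithelial or muscle tissue in the keratin values of this tumor was not tested.

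**Figure D2:**
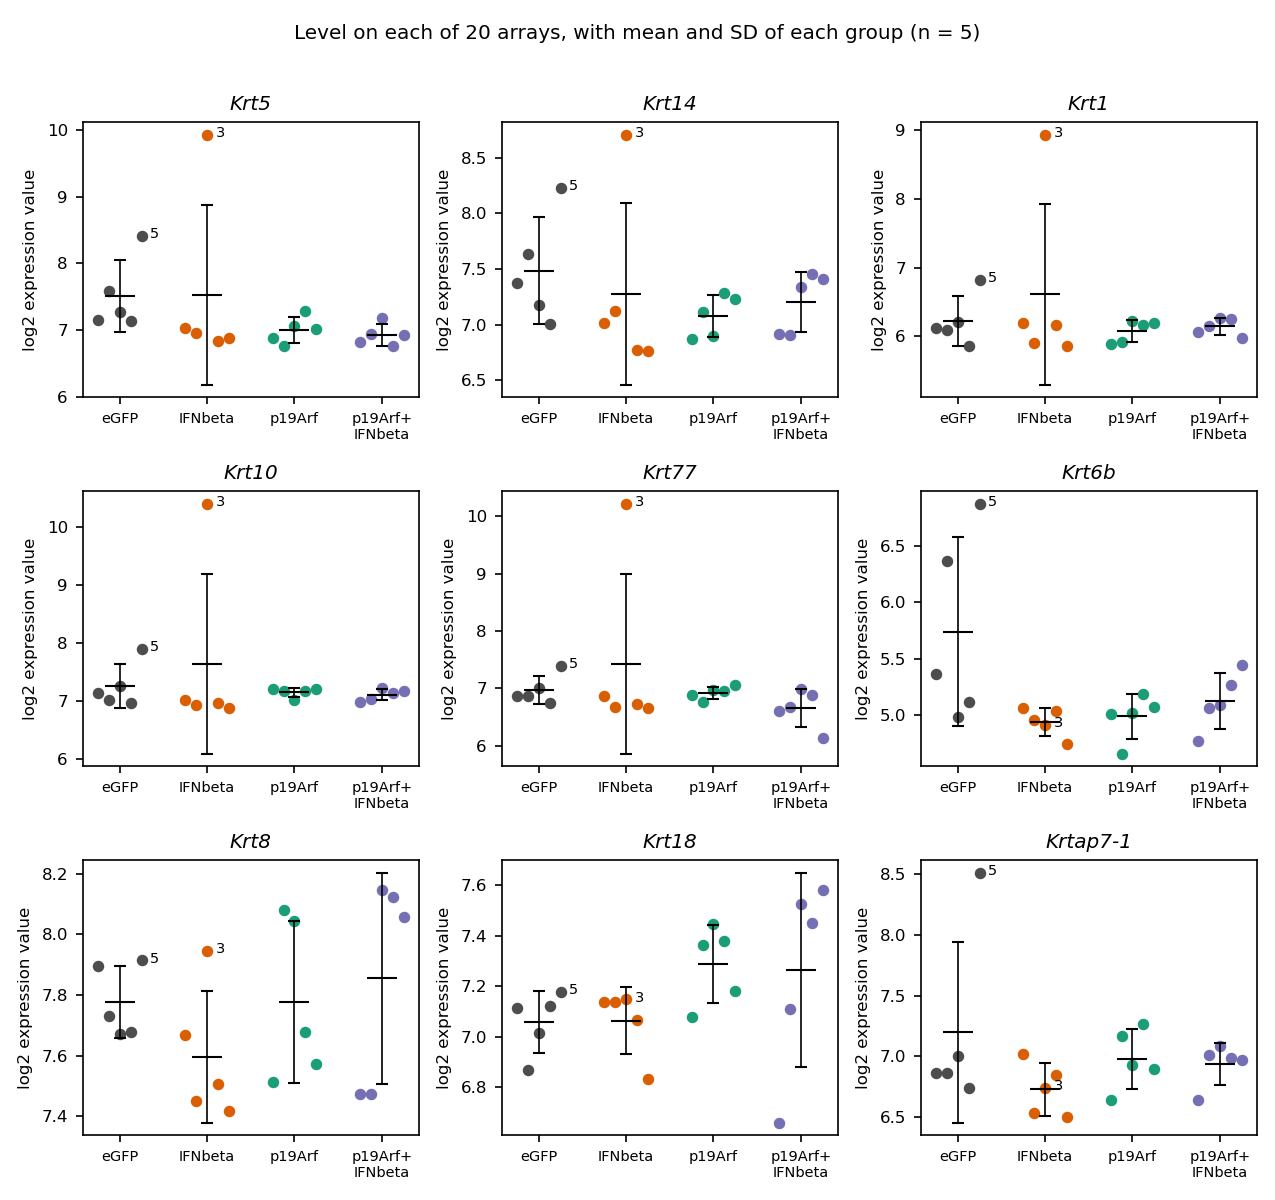
Log2 expression value of 9 genes on each of the 20 arrays (points, by group), with the mean and SD of each group (bar and whiskers, n = 5); IFNbeta replicate 3 and eGFP replicate 5 carry their replicate number. Krt5, Krt14, Krt1, Krt10 and Krt77 have a single high IFNbeta point and Krtap7-1 a single high eGFP point. Krt6b is high on eGFP replicates 5 and 2 (6.88 and 6.37), while Krt8 and Krt18 have no point that stands as far apart.

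The control group had a tumor of its own, eGFP replicate 5, on which another set of these genes was high. Here too 7 of the 96 genes lay at least 1 above their median, and only 13 of all 19938 genes, 0.0652%, did. The 7 were Krt6b, Krt5 and Krt14 among the keratins and Krtap7-1, Krtap8-1, Krtap15 and Krtap19-3 among the keratin-associated proteins, whose names were taken after their values were seen. Krt5 and Krt14 were the only genes on both lists, 28.6% of each. Of the 96 genes, 25 had their highest level of the 20 arrays on this tumor, 9 keratins and 16 keratin-associated proteins, where 1.59% of all genes did.

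Krt6b, a wound-induced type II keratin, was at 6.88 on eGFP replicate 5 and at 6.37 on eGFP replicate 2. The other 3 eGFP arrays were at 5.36, 4.99 and 5.11, and the 15 arrays of the other groups between 4.66 and 5.45. It lay 1.30 above its median on eGFP replicate 2, as 0.0853% of all genes did by at least 1, and no other of the 96 genes lay 1 above its median on 2 arrays of a group. Krt6a, its close relative, was at 7.55 on eGFP replicate 5 but at 6.81 on eGFP replicate 2, and 7.56 on p19Arf replicate 4. Krt5 was at 8.41 and Krt14 at 8.23 on eGFP replicate 5, against 7.14 to 7.58 and 7.0 to 7.64 on the other eGFP arrays. The suprabasal Krt1 at 6.82 and Krt10 at 7.91 were there the second highest of the 20 arrays, after IFNbeta replicate 3.

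Genes of hair were high on this control tumor as well. Krtap7-1, a high glycine-tyrosine protein of the hair shaft, was at 8.51 against 6.74 to 7.0 on the other 4 eGFP arrays. Krtap8-1 was at 7.85 against 6.22 to 6.70, and Krtap15 at 6.52 against 4.79 to 5.08. Krtap19-3 was at 6.53 against 5.38 to 5.52. Of the 13 high glycine-tyrosine genes, 10 had their highest level on this array, and so did 5 of 9 inner root sheath genes, 4 of 19 high sulfur, 2 of 12 ultra-high sulfur and 1 of 14 hair shaft keratin genes. Krt71, which pairs in the inner root sheath with type I keratins such as Krt25, was at 7.71 there and at 6.54 to 6.82 on the rest of the group. Krt25 was at 6.93 against 5.94 to 6.34, and Krt27 at 7.48 against 6.67 to 7.29. The members just short of the limit of 1 were Krt17 with 0.99, Krt71 with 0.99, Krtap19-5 with 0.95, Krtap6-1 with 0.85, Krt25 with 0.80, Krt79 with 0.78 and Krt10 with 0.76.

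Fewer markers other than keratins reached the limit of 1 on eGFP replicate 5 than on IFNbeta replicate 3. Of the 33 cornified envelope and desmosome genes 1 lay at least 1 above its median, Dsp (desmoplakin) with 8.01, 1.10 above. Dsc3 and Perp fell just short, 0.99 and 0.98 above, and both were higher there than on the 18 arrays other than these 2. The median deviation of the 33 genes was 0.27 on eGFP replicate 5, close to the 0.26 of the keratins. That of 20 hair follicle genes other than keratins was 0.17. None of the 20 hair follicle genes reached 1, and the highest was Tchh (trichohyalin, of the inner root sheath), at 7.55 against 6.54 to 7.22 on the 18 other arrays. The mean level of those 20 genes was 7.0, at the top of the 6.60 to 7.0 of the eGFP group, and over the other groups it ran from 6.56 to 6.75 in IFNbeta, 6.63 to 7.06 in p19Arf and 6.65 to 6.99 in p19Arf+IFNbeta. The part of skin or hair follicle cells in the values of this tumor was not tested.

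Gene position was set beside these values, with the order of genes taken from the RefSeq gene table. Type II keratin genes, with the type I gene Krt18 at the end, lie together in a run of 27 genes of these families, 25 of them measured. On IFNbeta replicate 3 the neighbours Krt1 and Krt77 were 2.79 and 3.35 above their medians, while Krt2 beside Krt1 was 0.14 below and Krt76 beside Krt77 was 0.25 below (Krt76 chosen after its values were seen). Krt5 was 2.91 above, between Krt6a and Krt71, which were within 0.1 of their medians. In the type I run Krt14 and Krt17 were 1.56 and 1.31 above, and Krt16 between them 0.07 above. The raised keratins therefore did not form an unbroken block on that tumor. On eGFP replicate 5, Krt6b, Krt6a, Krt5 and Krt71, which follow each other, were 1.82, 0.62, 1.39 and 0.99 above. In the third run, of keratin-associated proteins, 20 of 21 measured genes lay above their median there and 12 had their highest level of the 20 arrays, with the neighbours Krtap8-1 and Krtap7-1 at 1.29 and 1.60 above. On IFNbeta replicate 3, 8 of those 21 lay above their median and none by more than 0.14.

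**Figure D3:**
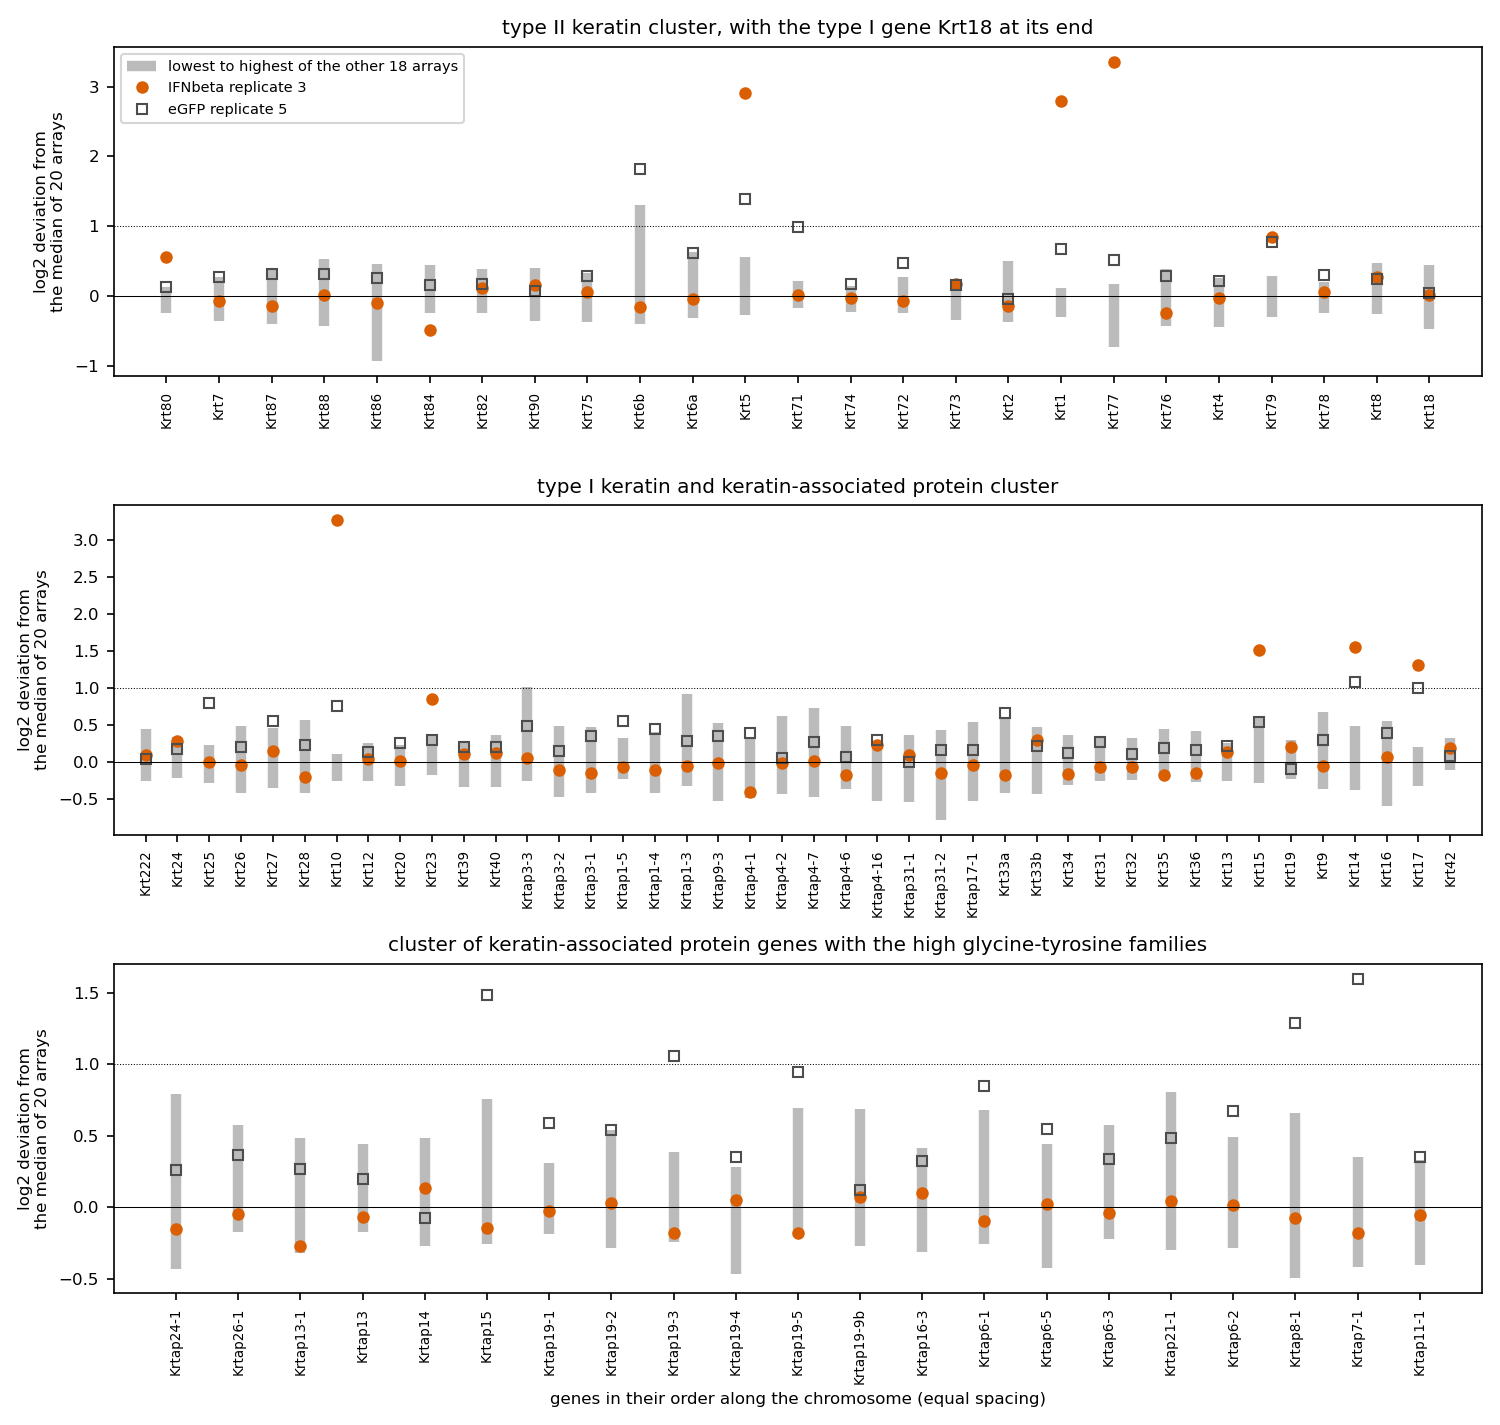
Log2 deviation of each measured gene from its median of 20 arrays (y axis) in chromosomal order at equal spacing (x axis) for the 3 largest gene clusters; orange points show IFNbeta replicate 3, open squares eGFP replicate 5, grey bars the lowest to highest of the other 18 arrays and the dotted line a deviation of 1. Krt5, Krt1, Krt77, Krt10, Krt15, Krt14 and Krt17 stand above the dotted line on IFNbeta replicate 3, and Krt6b, Krt5, Krt14, Krtap15, Krtap19-3, Krtap8-1 and Krtap7-1 on eGFP replicate 5.

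In the comparison of IFNbeta with eGFP, 2 tumors pulled the epidermal keratins opposite ways, one in each group. None of the 96 genes passed an adjusted p of 0.05 in limma (Benjamini-Hochberg over 19938 genes), and neither did any other gene, 0%. At an unadjusted p under 0.05, 0 of the 96 were higher and 7 lower with IFNbeta, where 1.34% of all genes were higher and 1.45% lower. The count of lower members moved with the setting, to 35 with array weights (10.9% of all genes lower), 13 with the spread covariate (3.17%), 15 without IFNbeta replicate 3 (2.03%) and 1 without eGFP replicate 5 (0.466%), with 0 members higher in each. The largest positive difference was that of Krt77, whose IFNbeta mean was 7.43 ± 1.57 and whose eGFP mean was 6.98 ± 0.25 (SD, n = 5 each). It came to 0.45 (SE 0.44, limma adjusted p 1). Krt10 differed by 0.39 (SE 0.43) and Krt1 by 0.39 (SE 0.38), and Krt5 by 0.02 (SE 0.40). Without IFNbeta replicate 3 and eGFP replicate 5 these became -0.15 for Krt77, -0.14 for Krt10, -0.04 for Krt1 and -0.36 for Krt5. Krt14 differed by -0.21 (SE 0.28) and Krt15 by 0.09 (SE 0.25). Taken out alone, IFNbeta replicate 3 left differences of -0.25 for Krt77, -0.31 for Krt10, -0.19 for Krt1, -0.58 for Krt5, -0.56 for Krt14 and -0.25 for Krt15. Taken out alone, eGFP replicate 5 left 0.24 for Krt5, -0.019 for Krt14 and 0.22 for Krt15.

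The largest negative difference was that of Krt6b, with 4.94 ± 0.13 in IFNbeta and 5.74 ± 0.84 in eGFP (SD, n = 5 each). The difference was -0.80 (SE 0.25, limma adjusted p 1), and without eGFP replicate 5 it was -0.52. Krt6b was also lower than in eGFP with p19Arf, at 4.99 ± 0.20 and a difference of -0.75 (SE 0.25, limma adjusted p 0.661). With p19Arf+IFNbeta it was at 5.13 ± 0.25, a difference from eGFP of -0.62 (SE 0.25, limma adjusted p 0.241). Those 3 comparisons share the eGFP arrays, and without eGFP replicate 5 the last 2 were -0.47 and -0.33. Its interaction of p19Arf and IFNbeta was 0.94 (SE 0.35, limma adjusted p 1), and 0.65 without eGFP replicate 5. Krt5 was lower than in eGFP by 0.51 (SE 0.40) with p19Arf and by 0.59 (SE 0.40) with p19Arf+IFNbeta, with limma adjusted p of 0.696 and 0.445. Without eGFP replicate 5 these were 0.29 and 0.36 lower.

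By direction alone, the means of 82 of the 96 genes were lower in IFNbeta than in eGFP and 14 higher, while 44.2% of all genes were higher. The median difference over the 96 was -0.15, against -0.02 over all genes, and without eGFP replicate 5 alone it was -0.079. All 14 hair shaft keratins, all 9 inner root sheath keratins and all 13 high glycine-tyrosine genes had a lower mean in IFNbeta, with median differences of -0.16, -0.19 and -0.22, and the same counts held after quantile normalization and with the spread of the arrays as a covariate. Among the 8 suprabasal genes 4 were lower, with a median of 0.04, and among the 6 simple epithelial genes 3 were lower, with a median of -0.04. Without both arrays the median over the 96 was -0.11, with 0 members higher and 4 lower at an unadjusted p under 0.05 (0.717% of all genes lower). By sign, 8 of the 96 turned their sign, 6 from higher to lower (Krt1, Krt5, Krt10, Krt15, Krt23 and Krt77) and 2 from lower to higher (Krtap6-1 and Krtap15).

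**Figure D4:**
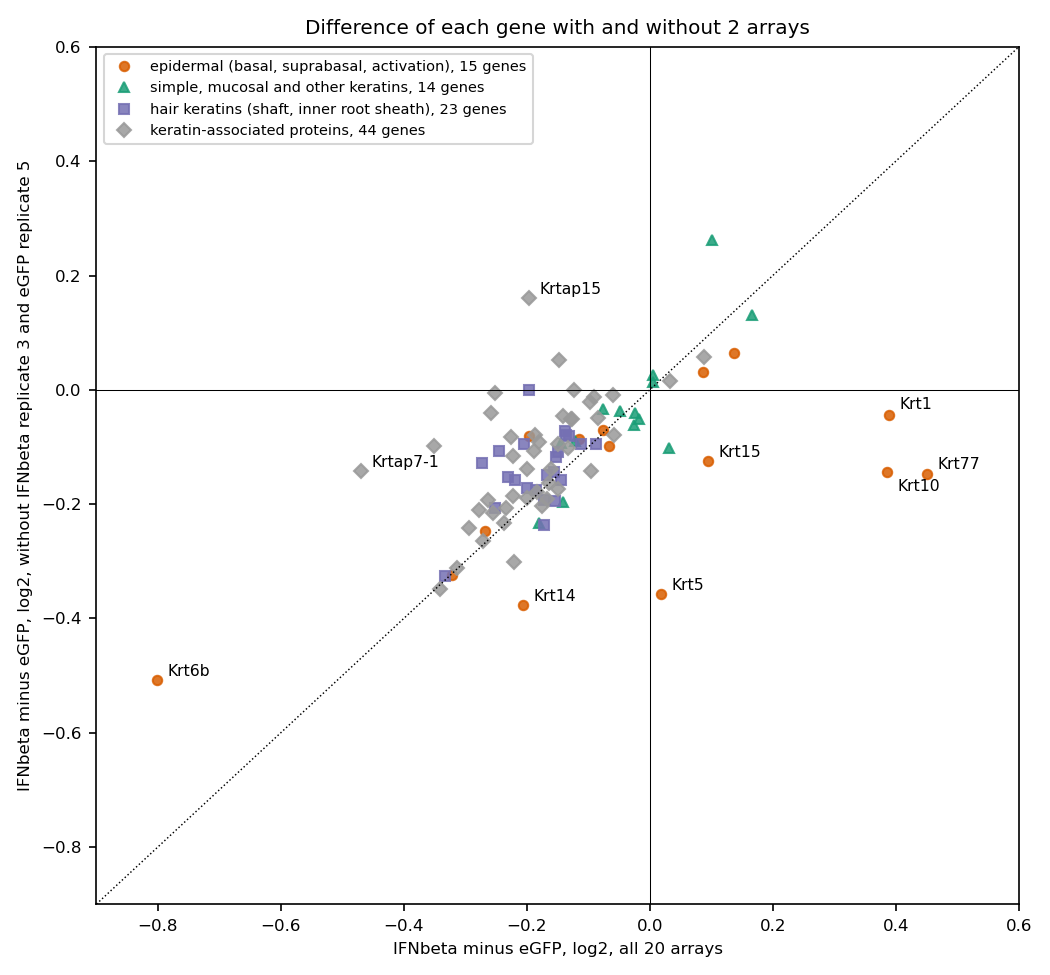
Log2 difference of IFNbeta minus eGFP for each of the 96 genes over all 20 arrays (x axis) and without IFNbeta replicate 3 and eGFP replicate 5 (y axis), by kind of gene; the dotted line marks equality. Krt77, Krt10 and Krt1 move from 0.45, 0.39 and 0.39 to below 0, Krt6b stays lowest, and most hair genes stay just below 0 on both axes.

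Only 2 of the 96 genes had IFNbeta arrays that did not overlap the eGFP arrays, Krt72 and Krt74, both of the inner root sheath and both named after their values were seen; 0.346% of all genes lay wholly below eGFP in this way and 0.552% wholly above. Krt72 was at 6.67, 6.60, 6.61, 6.66 and 6.43 in IFNbeta and at 6.88, 6.70, 6.68, 6.71 and 7.15 in eGFP. The difference was -0.23 (SE 0.10, limma adjusted p 1) and the nearest arrays of the groups were at 6.67 and 6.68. Krt74 was at 6.07, 6.06, 6.10, 6.05 and 5.90 against 6.24, 6.11, 6.18, 6.14 and 6.30, a difference of -0.16 (SE 0.07, limma adjusted p 1). Both gaps were small beside the spread within eGFP.

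The p19Arf and p19Arf+IFNbeta groups were each compared with eGFP. With p19Arf, none of the 96 genes passed the adjusted threshold in limma (0% of all genes), and 2 were higher and 1 lower at an unadjusted p under 0.05, beside 2.84% and 4.4% of all genes. With p19Arf+IFNbeta, none passed (0% of all genes), and 0 were higher and 1 lower at the unadjusted threshold, beside 6.18% and 11.4%. The mean was higher than in eGFP for 60 and 53 of the 96, beside 54.4% and 55% of all genes. Without eGFP replicate 5 it was higher for 82 and 78 of the 96, with median differences of 0.11 and 0.093. That array held the highest level of 25 of the 96 and of 1.59% of all genes. Leaving it out therefore lowers the eGFP means of those 25, whatever the vector. The median difference over the 96 was 0.05 and 0.02, against 0.02 over all genes in each, and with the spread of the arrays as a covariate it turned to -0.06 and -0.10. No member had arrays wholly apart from eGFP in either group, where 0.251% and 0.782% of all genes were wholly above and 0.441% and 0.547% wholly below.

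The simple epithelial keratins, the ones carried by many carcinoma cells, passed the adjusted threshold in no comparison with all arrays weighted equally. Krt8 was at 7.89, 7.73, 7.67, 7.68 and 7.91 in eGFP and at 7.67, 7.45, 7.94, 7.51 and 7.42 in IFNbeta. It was at 7.51, 8.08, 8.04, 7.68 and 7.57 in p19Arf and at 7.47, 7.47, 8.15, 8.12 and 8.06 in p19Arf+IFNbeta. All 4 groups overlapped, and the combination held both low and high tumors: its difference from IFNbeta was 0.26 (SE 0.15, limma adjusted p 0.248). IFNbeta differed from p19Arf by -0.18 (SE 0.15, limma adjusted p 0.437), and with arrays weighted by -0.34 (limma adjusted p 0.0471), which passed, but it was 0.019 with the spread covariate. Krt18, the partner of Krt8, had a mean of 7.29 ± 0.15 in p19Arf, 7.27 ± 0.38 in the combination, and 7.06 ± 0.12 and 7.06 ± 0.13 in eGFP and IFNbeta (SD, n = 5 each). It was 0.23 higher than eGFP in p19Arf (SE 0.14, limma adjusted p 0.663) and 0.21 higher in p19Arf+IFNbeta (SE 0.14, limma adjusted p 0.429).

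Krt19, a simple keratin without a fixed type II partner that is used as a carcinoma marker, had means of 7.27 ± 0.10, 7.43 ± 0.14, 7.44 ± 0.19 and 7.47 ± 0.22 (SD, n = 5 each) in eGFP, IFNbeta, p19Arf and p19Arf+IFNbeta. Its difference from eGFP was 0.17 (SE 0.11, limma adjusted p 1) in IFNbeta and 0.21 (SE 0.11, limma adjusted p 0.316) in p19Arf+IFNbeta. Krt7, of ductal and glandular epithelia, ran from 7.04 to 7.69 over the 20 arrays, and its group means lay between 7.29 and 7.46. In order of mean, Krt18 stood lowest in eGFP and highest in p19Arf and Krt8 lowest in IFNbeta and highest in p19Arf+IFNbeta, with neighbours in each order closer than the larger of their SDs. The mean level of 14 other simple epithelium genes (Epcam, Cdh1 and the like) ran from 6.84 to 7.36 over the arrays, and was 6.99 to 7.31 in p19Arf+IFNbeta, 6.91 to 7.29 in p19Arf and 6.87 to 7.18 in eGFP.

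The keratin-associated proteins and hair keratins were lower in IFNbeta than in both p19Arf groups, by small amounts. Against p19Arf, the means of 87 of the 96 genes were lower in IFNbeta, including all 44 keratin-associated proteins, 14 hair shaft keratins and 9 inner root sheath keratins, while 45.5% of all genes were higher. After quantile normalization 42 of the 44, all 14 and 6 of the 9 were lower, and with the spread covariate 40, 12 and 7. None of the 96 passed the adjusted threshold in limma, where 5 of all genes, 0.0251%, did. At an unadjusted p under 0.05, 26 of the 96 were lower in IFNbeta and 0 higher, beside 12.4% and 8.48% of all genes. Of these 26, 21 were keratin-associated proteins and 5 hair shaft keratins. The median difference was -0.19 over the 96, -0.27 over the 44 keratin-associated proteins and -0.03 over all genes. With arrays weighted by their quality in limma, 24 of the 96 genes passed the adjusted threshold, all lower in IFNbeta, and so did 4495 of all genes, 22.5%. The 12 ultra-high sulfur genes, the most cysteine-rich class, had a median of -0.38, the 19 high sulfur genes -0.28 and the 13 high glycine-tyrosine genes -0.25. A shift in this direction was not particular to hair genes. For 1027 olfactory receptor genes, the median deviation from their own medians was -0.17 to -0.005 on IFNbeta arrays. It was -0.05 to 0.59 on p19Arf and -0.05 to 0.13 on p19Arf+IFNbeta arrays. For the 44 keratin-associated proteins these ranges were -0.32 to 0.005, -0.11 to 0.51 and -0.09 to 0.19.

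Krtap5-3, an ultra-high sulfur protein, had the largest difference between IFNbeta and p19Arf. It was at 8.78, 8.63, 9.08, 8.32 and 8.22 in IFNbeta and at 8.83, 9.06, 9.45, 10.30 and 9.46 in p19Arf. The p19Arf arrays were higher by 0.81 on average but 1 IFNbeta array lay above 2 of them, and the limma adjusted p was 0.170 (SE 0.21). It was also the member furthest above eGFP in p19Arf, by 0.59 (SE 0.21, limma adjusted p 0.661), where eGFP was at 9.0, 8.62, 9.13, 8.42 and 8.98. Without p19Arf replicate 4 that difference was 0.37 and that of IFNbeta from p19Arf -0.60. In p19Arf+IFNbeta it stood at 9.07 ± 0.25 (SD, n = 5), 0.24 above eGFP (SE 0.21, limma adjusted p 0.569) and 0.35 below p19Arf (SE 0.21, limma adjusted p 0.998), or 0.13 below without p19Arf replicate 4.

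The largest positive difference of IFNbeta from p19Arf was in Krt1, 0.53 (SE 0.38, limma adjusted p 0.372), and it became -0.05 without IFNbeta replicate 3. Arrays of IFNbeta lay wholly below those of p19Arf for 3 of the 96 genes, Krt86, Krtap4-6 and Krtap13, the latter pair named after their values were seen, and for 1.14% of all genes; none lay wholly above, beside 0.757%. Krt86, a type II keratin of the hair shaft, was at 6.15, 6.18, 6.10, 5.60 and 5.27 in IFNbeta and at 6.19, 6.22, 6.44, 6.44 and 6.32 in p19Arf. Its difference was -0.46 (SE 0.15, limma adjusted p 0.198), and without IFNbeta replicate 5 it was -0.31. Krtap4-6 differed by -0.38 (SE 0.12, limma adjusted p 0.197) and Krtap13 by -0.22 (SE 0.10, limma adjusted p 0.219).

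The combination stood above IFNbeta alone in the same classes. Of the 96 genes 84 had a higher mean in p19Arf+IFNbeta, all 44 keratin-associated proteins and all 14 hair shaft keratins among them, while 57.1% of all genes did. After quantile normalization these were 41 of 44 and 13 of 14, and with the spread covariate 36 and 12. None passed the adjusted threshold in limma (0% of all genes), and 15 were higher and 0 lower at an unadjusted p under 0.05, beside 11.8% and 14% of all genes. With the spread covariate the balance turned, to 1 higher and 8 lower, beside 2.48% and 2.55% of all genes. The median difference was 0.18 over the 96 and 0.05 over all genes. Krt86 had the largest, 6.33 ± 0.19 against 5.86 ± 0.41 (SD, n = 5 each), a difference of 0.47 (SE 0.15, limma adjusted p 0.15), and without IFNbeta replicate 5 it was 0.32. Krtap31-2 was the only member whose arrays lay wholly above IFNbeta, as 1.3% of all genes did, at 6.44 to 7.01 against 5.80 to 6.43, with a difference of 0.39 (SE 0.15, limma adjusted p 0.155). None lay wholly below, beside 0.782% of all genes. The largest negative difference was that of Krt77, -0.77 (SE 0.44, limma adjusted p 0.247), and it was -0.07 without IFNbeta replicate 3.

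The calls of this comparison turned on 1 tumor. Without IFNbeta replicate 3, 2351 of all genes, 11.8%, passed the adjusted threshold, and 4 of the 96 did: Krt86 (0.53, limma adjusted p 0.0413), Krt33b (0.43, 0.0457), Krtap4-2 (0.47, 0.0488) and Krt26 (0.38, 0.0499). All were higher in p19Arf+IFNbeta, and they were a smaller share of the 96 than the called genes were of all genes. All are genes of the hair shaft or the inner root sheath, but so are most of the 96. These hold 14 hair shaft keratins, 9 inner root sheath keratins and 44 keratin-associated proteins. With eGFP replicate 5 left out as well, 1497 of all genes, 7.51%, passed, and Krt86 was the 1 member among them (limma adjusted p 0.0489). Krt33b and Krtap4-2 were named after their values were seen. With arrays weighted, 1730 of all genes, 8.68%, passed and none of the 96.

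Between the combination and p19Arf alone the keratins hardly differed. None of the 96 passed the adjusted threshold in limma (0% of all genes), and none was under an unadjusted p of 0.05 either, beside 1.83% of all genes higher and 1.24% lower. The median difference was -0.01, as over all genes, and 44 of the 96 had a higher mean, beside 46.9% of all genes. No member had its arrays wholly apart, where 0.16% of all genes were wholly above and 0.0953% wholly below. The extremes were Krt26, an inner root sheath keratin, with 0.15 (SE 0.12, limma adjusted p 0.998), and Krtap5-3. For the interaction, none of the 96 passed (0% of all genes), 1 was higher and 0 lower at an unadjusted p under 0.05, beside 0.813% and 0.492% of all genes. The term was above 0 for 74 of the 96 and for 52.2% of all genes, and the extremes were Krt6b and Krt77, the latter with -0.72 (SE 0.62, limma adjusted p 1) and with -0.016 without IFNbeta replicate 3.

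The levels of the keratin-associated proteins were set beside the spread of the arrays. On p19Arf replicate 4, with a spread of 2.0, the median deviation of the 44 genes from their own medians was 0.51, and 22 of the 44 had their highest level of the 20 arrays there. Together with 13 keratins these made 35 of the 96 genes, while 19.2% of all genes were highest on that array. On IFNbeta replicate 5, with the highest spread, 2.15, it was -0.32. For 1027 olfactory receptor genes, odorant receptors of the nasal epithelium, the median deviation was 0.59 and -0.17 on those 2 arrays. On p19Arf+IFNbeta replicate 4, with the lowest spread, 1.99, it was 0.15 for the keratin-associated proteins and 0.13 for the olfactory receptors. Some other arrays of low spread were not raised in this way. The keratin-associated proteins were at 0.06 on p19Arf+IFNbeta replicate 5 (spread 2.02), -0.04 on IFNbeta replicate 3 (2.04) and -0.11 on p19Arf replicate 2 (2.04). The olfactory receptors were at 0.04, -0.005 and -0.013 there. At a spread of 2.06, both families were raised on p19Arf+IFNbeta replicate 3 (0.19 and 0.12) and p19Arf replicate 5 (0.16 and 0.11). On eGFP replicate 1, also at 2.06, they were at 0.04 and 0.006. At a high spread of 2.13, both were low on IFNbeta replicate 4 (-0.27 and -0.15) and eGFP replicate 4 (-0.19 and -0.10). On eGFP replicate 5 the 2 families parted, with 0.33 for the keratin-associated proteins and 0.06 for the olfactory receptors. On p19Arf replicate 4, Krtap5-3 at 10.30 and Krtap10-4 at 8.82 lay at least 1 above their medians, beside 0.592% of all genes, and on p19Arf+IFNbeta replicate 4 Krtap3-3 did so at 7.34, beside 0.346%. Krtap10-4 and Krtap3-3, both high sulfur proteins, were named after their values were seen. Beyond these arrays, members reached 1 only on IFNbeta replicate 3, eGFP replicate 5 and eGFP replicate 2, and on the remaining 15 arrays none did.

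With the spread as a covariate, the median difference of IFNbeta from p19Arf over the 96 genes was -0.06 in place of -0.19, and that of the combination from IFNbeta 0.04 in place of 0.18. Under it 7 members were higher and 5 lower at an unadjusted p under 0.05 for IFNbeta against p19Arf, where 26 were lower without it; of all genes 3.08% were higher and 4.45% lower. The median difference of IFNbeta from eGFP was -0.15 with the covariate too. Spread and vector group overlap only in part, and the part of either in these small shifts was not tested further.

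**Figure D5:**
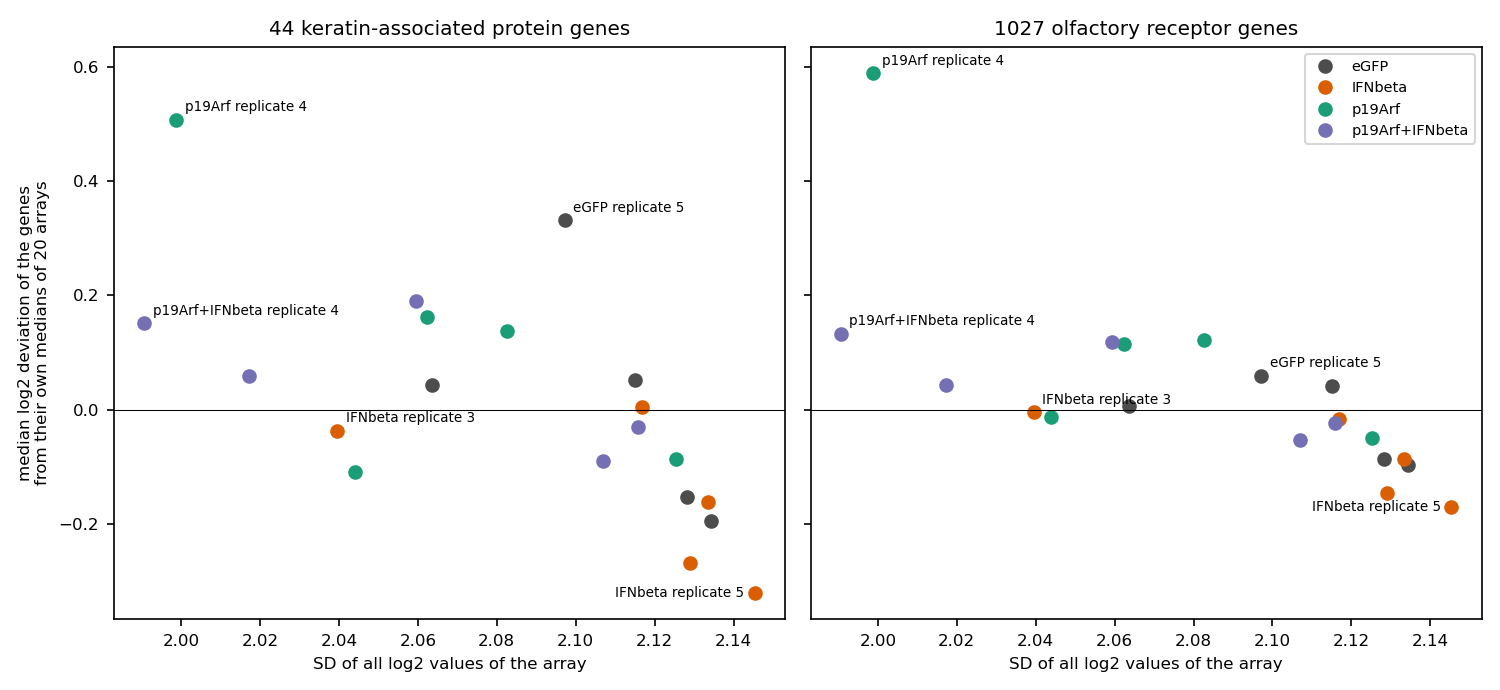
Median log2 deviation from their own medians of 20 arrays (y axis) of the 44 keratin-associated protein genes (left) and of 1027 olfactory receptor genes (right) on each array, against the SD of all log2 values of that array (x axis), coloured by group. Both families are highest on p19Arf replicate 4, at 0.51 and 0.59, and lowest on IFNbeta replicate 5, at -0.32 and -0.17, while eGFP replicate 5 is raised on the left, at 0.33, and not on the right, at 0.06.

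The other hair keratins of the fixed set were close between groups. Krt31, Krt33a and Krt35, type I keratins of the hair shaft, had group means of 6.64 to 6.79, 6.65 to 6.92 and 6.91 to 7.13. Over the 20 arrays Krt31 ran from 6.47 to 7.06, Krt33a from 6.36 to 7.45 and Krt35 from 6.82 to 7.45. The highest Krt33a value was again that of eGFP replicate 5, and those of Krt31 and Krt35 were of p19Arf+IFNbeta replicate 4. Krt16, the partner of Krt6 in wounds, ran from 6.21 on IFNbeta replicate 5 to 7.35 on p19Arf replicate 4, the arrays with the lowest and the highest median over the keratin-associated proteins.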

How the data were processed

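Total RNA of 20 tumors was labelled and hybridised to Affymetrix arrays, and the values used are the deposited log2 expression values of the series table. The submitters' processing notes name Affymetrix Expression Console and GCOS; the summarisation method and genome build are not stated by the sources used, and the log base was read from the range of the values. Symbols of probe sets are those of the platform annotation: 21789 of 35556 carry 1 symbol, 1621 several, and 12146 are not listed. Where a gene had several probe sets the brightest over the 20 arrays was kept, with no filter on low values.

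One linear model with a mean per group (16 residual df, prior df 6.06) was fitted to all 19938 genes in R 4.3.3 with limma 3.58.1 (lmFit, eBayes), and p-values were adjusted by Benjamini-Hochberg within each of 7 contrasts, the interaction of p19Arf and IFNbeta included. Calls are at an adjusted p under 0.05. The fit was tested on simulated data. Alternatives were each array left out in turn, median centring, quantile normalization, array weights, spread as a covariate, trend and robust moderation, mean of probe sets, a filter on low genes and a replicate block; leaving out both IFNbeta replicate 3 and eGFP replicate 5 was added after seeing the data. Tables and figures used Python 3.11.15, numpy 2.4.6, pandas 2.3.3 and matplotlib 3.10.9.

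Named were a fixed set of epidermal, simple and hair keratins (Krt1, 2, 5, 6a, 6b, 7, 8, 10, 14, 15, 16, 17, 18, 19, 25, 27, 31, 33a, 35 and 71), the 5 largest ranges, the extremes of each contrast and any called member; other genes were chosen after their values were seen. The members and all gene lists were chosen with earlier results of these data known. Promoters came from a RefSeq table (GRCm38.p6). No depth applies to arrays, whose number limits the precision.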

Additional observations from a re-analysis of the deposited data

Results flagged for a closer look

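Within each group of 5 arrays, the gap of the highest or lowest array to its neighbour was set against the group's whole range, for the named keratin genes, by Dixon's criterion (0.71 for 5 values). Chance alone passes it in about 1 in 20 groups, for a gene not picked by its values. The named genes include the 5 largest ranges over these arrays and the extremes of the contrasts, and Krt77 is named only through these. Such genes pass more readily, and genes of 1 array are not independent. In IFNbeta, replicate 3 stood far above the other 4 for 7 genes: Krt10 at 10.41, Krt77 at 10.23, Krt5 at 9.93, Krt1 at 8.94, Krt14 at 8.71, Krt15 at 8.68 and Krt17 at 7.72. Krt71 stood apart on eGFP replicate 5, at 7.71. On the other side, Krt18 was low on IFNbeta replicate 5, at 6.83, and Krt10 was low on p19Arf replicate 3, at 7.02, by a gap that is small in absolute terms. Krt31 stood high on p19Arf+IFNbeta replicate 4, at 7.06. Over all 96 keratin and keratin-associated genes, 12 passed in IFNbeta, 8 in eGFP and 6 in each of the p19Arf and p19Arf+IFNbeta groups, and over all genes 10.0%, 6.97%, 6.91% and 3.65% did.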

How the results depend on the processing

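The median difference over the members moved by less than the pooled SD of the array medians, 0.15, under the alternatives run. That limit is about as large as the largest median differences, so a difference can nearly vanish within it. With the spread covariate, p19Arf+IFNbeta minus IFNbeta fell from 0.18 to 0.04, and IFNbeta minus p19Arf went from -0.19 to -0.06. The sign is not settled where the median difference is near 0. With the spread covariate it was -0.06 for p19Arf and -0.10 for p19Arf+IFNbeta against eGFP. Without 1 array it was -0.025 to 0.11 and -0.029 to 0.093. Precision is limited by 5 arrays a group and by the lack of detection calls. Under array weights 5 genes were called for IFNbeta against eGFP, 166 for p19Arf+IFNbeta against eGFP, 1730 for p19Arf+IFNbeta against IFNbeta and 4495 for IFNbeta against p19Arf, with 24 members called in the last, while over 20 arrays without weights the counts were 0, 0, 0 and 5, with no member. For p19Arf+IFNbeta against IFNbeta, median centring gave 1 gene, the filter on low genes 1, and leaving out both IFNbeta replicate 3 and eGFP replicate 5 gave 1497 with 1 member. For IFNbeta against p19Arf, quantile normalization gave 0 genes, the spread covariate 0, the filter 1 and leaving out both arrays 2.

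Leaving out 1 array at a time gave 0 to 2351 genes and 0 to 4 members for p19Arf+IFNbeta against IFNbeta (2351 and 4 without IFNbeta replicate 3), 0 to 84 genes for p19Arf+IFNbeta against eGFP (84 without eGFP replicate 1) and 0 to 28 for IFNbeta against p19Arf (28 without p19Arf replicate 1). The cause was not tested.

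No member called over the 20 arrays reversed, since none was called, but the sign of uncalled differences of IFNbeta from eGFP did. Under array weights it was -0.10 for Krt77, -0.17 for Krt10, -0.075 for Krt1, -0.43 for Krt5 and -0.22 for Krt15; without both arrays it was -0.15, -0.14, -0.044, -0.36 and -0.12. Leaving out 1 array gave -0.25 to 0.64 for Krt77, -0.31 to 0.57 for Krt10, -0.19 to 0.58 for Krt1, -0.58 to 0.24 for Krt5, -0.25 to 0.22 for Krt15 and -0.043 to 0.063 for Krt18. Krt1 in IFNbeta against p19Arf was -0.048 without both arrays and -0.048 to 0.72 without 1 array, and Krtap5-3 in p19Arf+IFNbeta against eGFP was -0.070 and Krt8 in IFNbeta against p19Arf 0.019 with the spread covariate.

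With the replicate number as a block, 1 gene and no member was called for IFNbeta against p19Arf and 0 genes in the other 6 contrasts. The numbers gave no sign of pairing: over 30 same-numbered pairs the correlation of deviations ran from -0.62 to 0.66 (median -0.05, 11 over 0.1), and 3 of 20 arrays correlated best with their own number.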
